A study of Mus musculus with 2 samples.

Results

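Quinone and carbonyl detoxifying enzymes were followed in mouse embryonic fibroblasts given celastrol. The group consists of 9 genes: the quinone reductases Nqo1 and Nqo2, the carbonyl reductases Cbr1 and Cbr3, the aldo-keto reductases Akr1b3 and Akr1b8, the epoxide hydrolase Ephx1, the S-formylglutathione hydrolase Esd, and Osgin1, a gene induced by oxidative stress. They were chosen by name, with earlier results of these arrays known. A probe set that names the gene alone was found for 8 of the 9, out of 19938 genes with such a probe set, and Akr1b3, which encodes aldose reductase, was not analysed here. All 8 were above the detection limit on both arrays.

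The cells were fibroblasts grown from mouse embryos, and both cultures had been infected with an adenovirus that carried LacZ. One culture received the solvent DMSO and the other 250 nM celastrol, each for 7 h in DMEM with 1% FBS. Celastrol is a plant triterpenoid with a quinone methide group, which reacts with thiols. RNA was measured on 2 Affymetrix arrays, 1 per culture. The labels used here give no mouse strain, embryonic age, passage or pooling. Since no group had a second array, no test was possible, no value has an error, and a difference between the cultures or between the arrays cannot be told apart from one due to celastrol. A level in a whole culture also does not separate fewer expressing cells from less RNA per cell.

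Quinones can do harm when a single-electron reduction turns them into semiquinones, which pass the electron to oxygen. NQO1 avoids this step by reducing the quinone directly to a hydroquinone, which can be conjugated and exported. Carbonyl and aldo-keto reductases convert reactive ketones and aldehydes to alcohols, and epoxide hydrolases open epoxides to diols. In mouse cells Nqo1 is a classical target of the transcription factor NRF2, which is held back by the thiol sensor KEAP1 and binds antioxidant response elements, and it also belongs to the gene battery of the aryl hydrocarbon receptor (AhR).

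Sequences before the annotated start sites are shown for Nqo1 and Osgin1, whose differences were the largest of the group, and for Cbr1 and Cbr3, a neighbouring pair of paralogues with differences of opposite sign. They are the 250 bases before the start in RefSeq (build GRCm38.p6), written 5′ to 3′ on the strand of the gene. Capitals mark matches to the motifs described after the sequences. The window of Nqo1 is chr8:107403206-107403455 on the minus strand. That of Osgin1 is chr8:119436897-119437146, that of Cbr1 chr16:93607587-93607836 and that of Cbr3 chr16:93682969-93683218, all on the plus strand.
Nqo1: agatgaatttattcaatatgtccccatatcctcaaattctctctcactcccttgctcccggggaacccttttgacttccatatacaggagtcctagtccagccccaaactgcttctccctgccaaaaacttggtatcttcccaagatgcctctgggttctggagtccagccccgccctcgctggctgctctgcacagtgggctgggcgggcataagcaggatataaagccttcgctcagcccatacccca
Osgin1: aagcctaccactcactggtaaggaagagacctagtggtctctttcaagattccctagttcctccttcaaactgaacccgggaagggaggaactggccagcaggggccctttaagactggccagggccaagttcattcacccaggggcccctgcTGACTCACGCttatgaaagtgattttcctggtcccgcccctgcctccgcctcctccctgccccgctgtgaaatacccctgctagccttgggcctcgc
Cbr1: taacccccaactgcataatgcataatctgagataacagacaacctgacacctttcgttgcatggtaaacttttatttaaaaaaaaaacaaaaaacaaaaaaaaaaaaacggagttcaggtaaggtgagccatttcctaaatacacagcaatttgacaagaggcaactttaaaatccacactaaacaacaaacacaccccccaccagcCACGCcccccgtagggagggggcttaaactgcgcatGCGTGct
Cbr3: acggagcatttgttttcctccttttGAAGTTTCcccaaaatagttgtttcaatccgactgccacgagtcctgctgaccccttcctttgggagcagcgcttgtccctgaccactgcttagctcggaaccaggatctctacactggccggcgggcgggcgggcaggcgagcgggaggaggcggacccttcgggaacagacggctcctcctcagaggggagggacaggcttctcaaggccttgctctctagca

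RefSeq windows were found for 8 of the 9 genes, 9 windows in all because Nqo2 has 2 annotated starts. Each motif was looked for on both strands in the 250 bases before a start. The antioxidant response element core TGACNNNGC was in 0 of these windows and in 10.2% of all 32851 mouse windows. The AhR element core GCGTG was present for 4 genes, Nqo2 (in both windows), Cbr1, Akr1b8 and Osgin1, and in 28.2% of all windows. The shares count windows and not genes, and a gene with several starts has more windows in which to match. The heat shock element core GAANNTTC was present for 1 gene, Cbr3, and in 6.69% of all windows. In Osgin1 the heptamer TGACTCA, an AP-1 type element, was also found and overlaps the AhR core. This motif was added after the sequence had been seen, and 4.46% of all windows hold it. The antioxidant response element core was looked for only in the form TGACNNNGC. Whether TGACTCA and the bases beside it in Osgin1 form another version of that element was not tested. The Nqo1 window holds none of the motifs looked for. A match describes the letters only, and nothing about a factor follows from a window without one.

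Among the quinone reductases, Nqo1 was higher with celastrol and its paralogue Nqo2 was nearly the same on both arrays. The values below are log2 values of one probe set per gene, so they compare arrays for a gene and not genes with each other. Nqo1 (probe set 10581538) stood at 7.00 with DMSO and 8.46 with celastrol. The difference of 1.46 is a 2.76-fold higher level, rank 83 of 13904 detected genes in the upward direction. The DMSO value lay 1.27 above the detection limit of 5.72, which was the smallest such distance among the 8 genes. NQO2, which uses dihydronicotinamide riboside in place of NAD(P)H as electron donor, had values of 9.20 and 9.16 for its transcript (probe set 10404496). Its difference of -0.04 became 0.01 when a trend of the difference on level was subtracted, so Nqo2 has no settled sign.

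The carbonyl reductases went in opposite directions. CBR1 and CBR3 are NADPH-dependent enzymes of the short-chain dehydrogenase family, and CBR1 is the one with the broader range of substrates. Cbr1 (probe set 10436967) stood at 9.13 with DMSO and 8.81 with celastrol, a difference of -0.31 or 1.24-fold lower. Cbr3 (probe set 10436978) stood at 8.20 and 8.72, a difference of 0.51 or 1.43-fold higher. Both genes lie on chromosome 16 as immediate protein-coding neighbours in RefSeq, and their differences were 0.83 apart. Both signs were the same under the 3 other scalings, which were the alternatives that could change these values, since each gene has 1 probe set. The value for Cbr1 lay inside the scatter described below and that for Cbr3 outside it.

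Akr1b8 and Ephx1 were higher by small amounts. AKR1B8 is an NADPH-dependent aldehyde reductase that was first known as a protein induced by fibroblast growth factor. Akr1b8 (probe set 10537146) had values of 10.69 and 10.98, a difference of 0.29 or 1.22-fold. Its neighbour in the chromosome 6 cluster, Akr1b10, differed by -0.09, and, since these genes are similar in sequence, signal shared between their probe sets was not tested. EPHX1, the microsomal epoxide hydrolase, acts on epoxides that cytochromes P450 form from aromatic compounds. Ephx1 (probe set 10360684) stood at 8.71 and 9.07, a difference of 0.36 or 1.28-fold.

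Osgin1 and Esd were higher by larger amounts. OSGIN1 is not a reductase. It is a flavin-containing protein linked to growth inhibition and cell death under oxidative stress. Osgin1 (probe set 10575873) had values of 8.55 with DMSO and 9.97 with celastrol. The difference of 1.42, or 2.67-fold, was within 0.05 of that of Nqo1 and had rank 94 of the detected genes. Like Nqo1, Osgin1 lies on chromosome 8, but the genes are not neighbours. ESD hydrolyses S-formylglutathione, the product that ADH5 makes from formaldehyde and glutathione, and so returns glutathione to the cell. Esd was the only gene of the group with 2 probe sets. The brighter one (10417273) stood at 11.05 and 11.97, a difference of 0.92 or 1.89-fold and rank 338. The other (10416411) stood at 10.93 and 11.63, a difference of 0.70 or 1.62-fold. The probe sets were 0.22 apart, a gap larger than that of 71.3% of the 762 genes with several detected probe sets, whose median gap was 0.10.

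**Figure D1:**
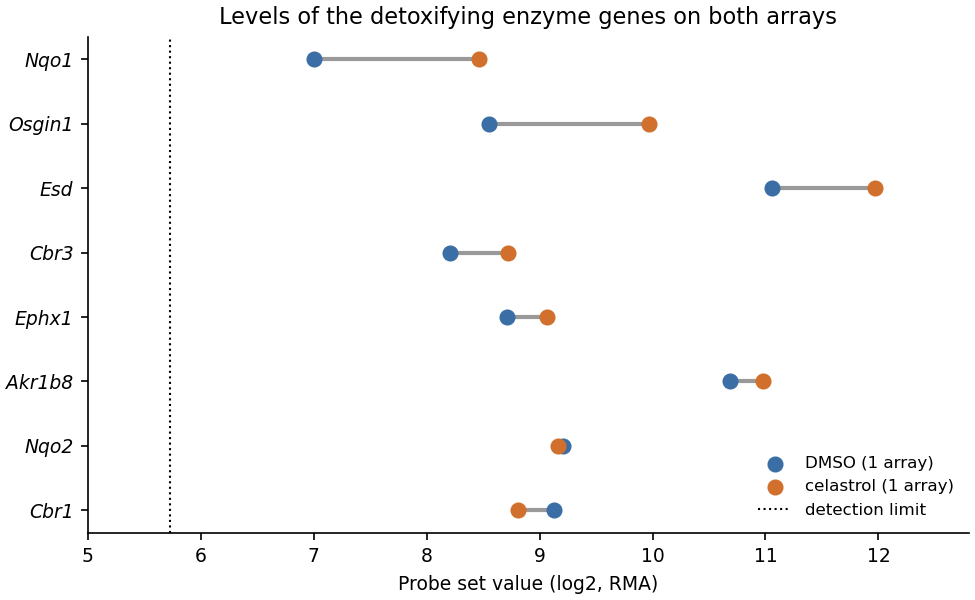
Value of each gene on the DMSO array (blue) and the celastrol array (orange), as log2 RMA values of 1 probe set per gene, with 1 array per condition and no error bars. The dotted line is the detection limit of 5.72. Nqo1 moves from 7.00 to 8.46 and Osgin1 from 8.55 to 9.97, while Nqo2 lies at 9.20 and 9.16 and Cbr1 at 9.13 and 8.81.

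Across the 8 genes, 6 had a higher value with celastrol and 2 a lower one. Of all 13904 detected genes, 48.1% were higher and 51.9% lower. Nqo1 and Osgin1, 2 of the 8 genes, were higher by 2-fold or more, as were 1.88% of all detected genes. Lower by 2-fold or more were 0 of the 8 and 0.662% of all. With 1.5-fold as the size of interest Esd joined the higher genes, giving 3 of 8 against 6.19% of all, and none of the 8 was lower by that amount, against 4.68% of all. The median of the group was 0.44, and that of all detected genes was -0.01. Without Nqo1 and Osgin1 the median of the other 6 was 0.32. The genes were put together with earlier results of these arrays known, so these shares describe the group and test nothing.

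As a measure of scatter, 1212 probe sets of receptor genes of the olfactory and vomeronasal epithelia were used, genes foreign to fibroblasts. The central 95% of their differences ran from -0.42 to 0.41. Nqo1, Osgin1, Esd and Cbr3 lay outside this range. Nqo2, Cbr1, Akr1b8 and Ephx1 lay inside it, so 4 of the 8 differences were within the scatter of receptor probe sets. Receptor probe sets are dim and contain no variation between cultures, so the range is not an error of the values above.

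**Figure D2:**
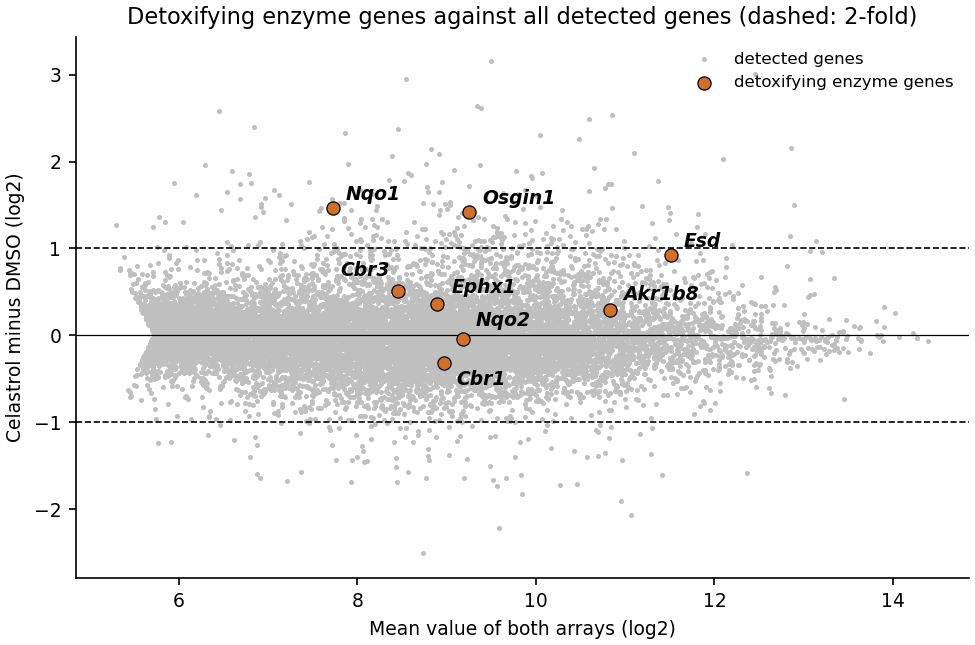
Difference between the celastrol and the DMSO array (log2) against the mean value of both arrays (log2) for the 13904 detected genes (grey) and the 8 detoxifying enzyme genes (orange). Dashed lines mark 2-fold. Nqo1 (1.46) and Osgin1 (1.42) lie above the upper line, Esd (0.92) just under it, and Cbr1 (-0.31) lies lowest of the group.

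**Figure D3:**
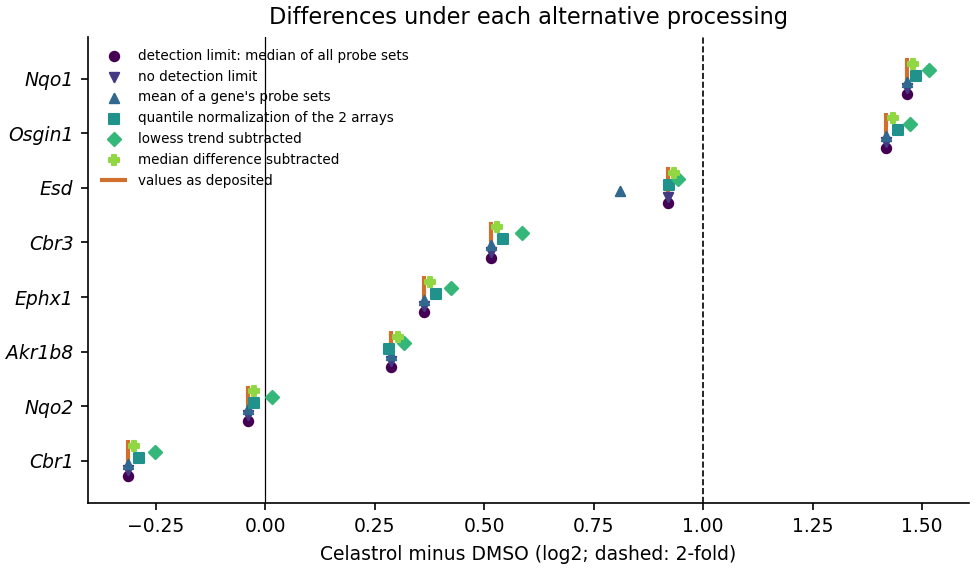
Difference between the celastrol and the DMSO array (log2) of each of the 8 genes with the values as deposited (orange bar) and under 6 alternative treatments (symbols), with 2-fold as a dashed line. Esd moves most, to 0.81 with the mean of its 2 probe sets, Nqo2 alone crosses 0, and no gene crosses the 2-fold line.

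Other enzymes with related chemistry showed no common direction. Of 67 such genes in 7 lists, 64 had a probe set naming them alone and 46 were detected. Among these, 18 were higher and 28 lower, with a median of -0.08 and a range from -0.99 to 1.26. Of all detected genes, 48.1% were higher and 51.9% lower. Of the 46, 2 (4.35%) were higher by 2-fold or more, against 1.88% of all detected genes. Lower by that amount were 0 of the 46 and 0.662% of all. None of the 46 exceeded Nqo1 or Osgin1, and 3 exceeded Esd.

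The genes higher by 2-fold or more were Cyb5r1 and Zadh2, from the list of other quinone and enone reductases. That list had 9 detected members with a median of 0.06, of which 6 were higher. Cyb5r1, of the NADH-cytochrome b5 reductase family, went from 9.56 on the DMSO array to 10.83 on the celastrol array, a 2.40-fold higher level. Zadh2, a prostaglandin reductase of the quinone oxidoreductase family, stood at 8.03 and 9.09, 2.07-fold higher. Ptgr1, which reduces the double bond of enones and of leukotriene and prostaglandin metabolites, and Cryzl1, a relative of zeta-crystallin, differed by 0.93 and 0.92. The latter pair was picked out after their values were seen. The lowest values of the list were those of Cyb5r3 (-0.34) and of Cryz (-0.13), which encodes zeta-crystallin, a quinone reductase that transfers single electrons.

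Of 11 detected short-chain carbonyl reductases, the family of Cbr1 and Cbr3, 9 were lower and 2 higher, with a median of -0.23. Cbr2, a carbonyl reductase best known from mouse lung, had values of 10.68 and 9.69, which is 1.98-fold lower in the celastrol culture. Cbr4, a mitochondrial reductase, was 1.56-fold lower. Dhrs7 (0.59) and Dhrs7b (0.21) were the higher members. Cbr3 differed in sign from the 3 other detected genes named Cbr, whose differences ran from -0.99 to -0.31.

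Of 13 further aldo-keto reductases with a probe set, 5 were detected, 1 higher and 4 lower. Their median was -0.09. Akr1a1, the abundant aldehyde reductase, differed by 0.14 and Akr1c14 by -0.06, while Akr7a5 (-0.26) and Akr1e1 (-0.42) were lowest. None reached the size of the difference in Cbr3.

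Of 14 detected aldehyde dehydrogenases, which oxidise aldehydes to acids where the reductases make alcohols, 6 were higher and 8 lower, with a median of -0.17. Aldh1l2, a mitochondrial enzyme of folate metabolism, had the highest difference, with values of 10.25 and 11.08, or 1.78-fold. Aldh3a2, which acts on fatty aldehydes, followed at 0.39. Aldh16a1 (-0.60) and Aldh3b1 (-0.52) were lowest. Aldh3a1, which belongs with Nqo1 to the AhR battery, differed by 0.12 near the detection limit.

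The genes that act beside Esd and Ephx1 differed in both directions, and none by as much as Esd. Hagh and Ugp2 came close to the 0.36 of Ephx1. Adh5, which acts one step before Esd in formaldehyde removal, stood at 10.08 with DMSO and 10.13 with celastrol. Its difference was 0.05, against 0.92 for Esd. In the glyoxalase pathway, which removes methylglyoxal with the help of glutathione, Glo1 differed by -0.38 and Hagh by 0.35. The value of Glo1 is that of the brighter of its 2 probe sets. Park7, an oxidative stress protein, differed by -0.31. Of 4 other epoxide hydrolase genes only Lta4h, which makes leukotriene B4, was detected, at -0.19. In conjugation, Ugp2 and Ugdh, which make the sugar donor of glucuronidation, differed by 0.37 and -0.004.

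Against neighbouring parts of the antioxidant programme, the group lay between glutathione synthesis and the transferases. The 6 glutathione synthesis genes had a median of 0.99. Of these, 5 were higher, and 3 of the 5 by 2-fold or more. Over all detected genes these shares were 48.1% and 1.88%. Slc7a11, the cystine carrier, differed by 3.15, Gclc and Gclm, the subunits of glutamate-cysteine ligase, by 1.70 and 1.32, Gsr, glutathione reductase, by 0.45 and Gss by -0.12. The difference of Nqo1 lay between those of Gclm and Gclc. Of 15 detected glutathione transferases 6 were higher and 9 lower, with a median of -0.17, from Gsta4 (2.49) and Gsto2 (0.82) to Gstz1 (-0.78) and Gstt1 (-0.93). Of 6 enzymes of the pentose phosphate pathway and of the supply of NADPH, the cofactor of most of the reductases, 3 were higher and 3 lower. Pgd, Me1 and Idh1 form NADPH themselves, Pgls, Tkt and Taldo1 act on the sugars of the pathway, and G6pdx, which catalyses its first step, was not analysed here. The median of the 6 was -0.05, and 0.01 with a trend on level subtracted. Me1 (0.45, the brighter of 2 probe sets) and Pgd (0.27) were highest and Pgls (-0.28) and Idh1 (-0.77) lowest. The contrasts between lists were not tested.

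**Figure D4:**
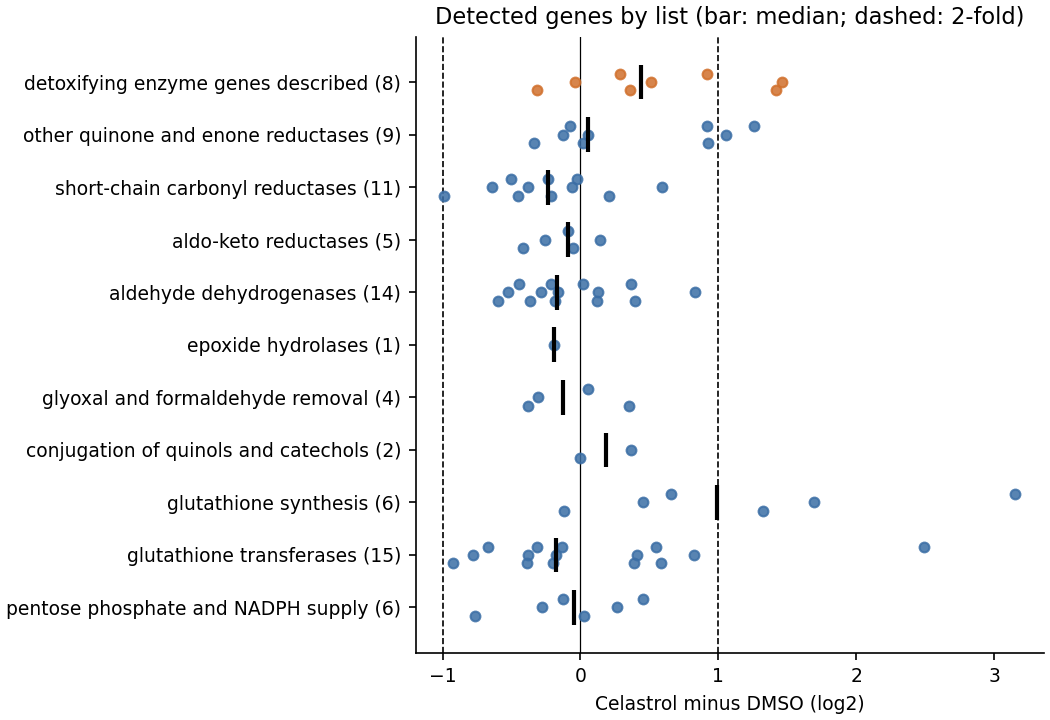
Difference between the celastrol and the DMSO array (log2) of each detected gene, by list, with the number of detected genes in parentheses. The 8 genes described are orange, black bars are medians and dashed lines mark 2-fold. The group has a median of 0.44, between glutathione synthesis (0.99) and the short-chain carbonyl reductases (-0.23), and the other quinone and enone reductases include 4 values from 0.92 to 1.26 and 5 that run from -0.34 to 0.06.

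The genes with the pair of values most like that of Nqo1, by Euclidean distance over the 2 arrays, were Stc1 (6.93 and 8.50), Egr2 (7.05 and 8.57) and Itga6 (7.11 and 8.33). Their distances were 0.08, 0.11 and 0.17. With 2 arrays this likeness is a description of levels only.

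Of 11 fibroblast markers, used as a check of the labelled cell type, 10 were detected, among them Vim at 13.85 and 13.95, Fn1, Col1a1, Col1a2 and Dcn, while Lum was not detected. Of the fibroblast markers 7 were lower and 3 higher, with none 2-fold apart. Among 6 macrophage and leukocyte markers 2 were detected, Csf1r (5.99 and 6.25) and Cd68, which was 2.76-fold higher with celastrol (6.86 and 8.33). Ptprc, Adgre1, Itgam and Lyz2 were below the detection limit. Of 5 endothelial markers 3 were detected and of 5 epithelial markers 4, none with a difference above 0.15. The part of other cells in the values of the detoxifying genes was not tested.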

How the data were processed

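The authors' deposited log2 values came from RMA, per the submitters' processing notes. For the RMA version, its settings and the genome build, nothing is stated in the labels. The log2 base was read from the range of the values. RMA compresses differences of dim probe sets. Of 35556 probe sets, GEO's platform annotation named 1 gene for 21789, several for 1621 and none for 12146. For 21698 of the 21789, the Entrez identifier was found in RefSeq and the symbol given there was used, whether or not it had changed. A gene took the probe set with the highest mean of both arrays. It counted as detected if either array exceeded the 95th percentile of 1212 receptor probe sets. Differences are celastrol minus DMSO, and folds are 2 raised to them. There were 0 other value columns.

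Members and lists were chosen with earlier results of these data known. Named were all members, the 2 highest and 2 lowest detected genes of each list, any 2-fold apart, and the 3 genes nearest Nqo1, and others are marked where named. Where a list gives more names, these were added after their values were seen. Alternatives were other detection limits, the mean of probe sets, quantile normalization, a lowess trend (fraction 0.3), median subtraction and folds of 1.5 and 3. The number of arrays limits the precision. Counting was tested on simulated data. Python 3.11.15, numpy 2.4.6, pandas 2.3.3, statsmodels 0.14.6 and matplotlib 3.10.9 were used.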

Additional observations from a re-analysis of the deposited data

How the results depend on the processing

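Under the 6 alternatives that change values or detection, the 2 genes at least 2-fold higher stayed at 2 and the median of the group ran from 0.44 to 0.50. Nqo1 ran from 1.46 to 1.52, Osgin1 from 1.42 to 1.47, Esd from 0.81 (mean of its 2 probe sets) to 0.94, Cbr3 from 0.51 to 0.59, Ephx1 from 0.36 to 0.42, Akr1b8 from 0.28 to 0.32 and Cbr1 from -0.31 to -0.25. The sign of Nqo2 changed, with 0.01 after subtraction of a lowess trend. For genes with 1 probe set only the 3 scalings could change a value. A 3-fold threshold left 0 members, 0.432% of all detected genes higher and 0.137% lower, and a 1.5-fold threshold gave 3 members, 6.19% and 4.68%, by construction. Of the 46 detected related enzymes, 17 to 19 were higher and 27 to 29 lower under the alternatives that kept the same detection rule. With the values as deposited, 51.9% of all detected genes were lower, and their median was -0.01. That median was 0 by construction after median subtraction and 0.004 after subtraction of the lowess trend. No paired analysis was possible because each group has 1 array, and for the same reason no array could be left out. Akr1b3 has no value here, 7 of the 8 genes rest on 1 probe set, and scanner files were not used, so signal over background was judged only from receptor probe sets.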

Other observations

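Genes that regulate these enzymes or share their regulators went in different directions. Nfe2l2, which encodes NRF2, stood at 10.59 with DMSO and 10.99 with celastrol, a difference of 0.40, and Keap1, its inhibitor, at 8.80 and 8.76. Bach1, a repressor at antioxidant response elements, was 1.53-fold higher. Ahr and Arnt, the partners of the AhR complex, differed by 0.17 and -0.28. Of the genes that AhR induces together with Nqo1, Tiparp stood at 9.33 and 10.65, 2.49-fold higher, and Cyp1b1 at 11.42 and 10.23, 2.27-fold lower. Cyp1a1 was below the detection limit on both arrays (4.95 and 5.41), and Ahrr, the feedback repressor, differed by -0.16. No array replicate bears on these values.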
